A study of Homo sapiens with 16 samples.

Results

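HOX cluster genes encode homeodomain transcription factors and lie in 4 clusters, HOXA, HOXB, HOXC and HOXD. The protein-coding genes of RefSeq (GRCh38) whose symbol is HOXA, HOXB, HOXC or HOXD followed by a number were taken, which gave 39 of 19630 protein-coding genes of the autosomes and the X chromosome, with 11 in HOXA, 10 in HOXB, 9 in HOXC and 9 in HOXD. For each gene, H3K27ac peaks within 2 kb of its transcription start site (TSS) and across its cluster were read from 14 peak lists of K562, a cell line derived from a chronic myelogenous leukemia. H3K27ac is acetylation of lysine 27 of histone H3 and marks active promoters and enhancers.

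Along a HOX cluster the genes are numbered by paralog group, and their order follows the order in which body regions of the embryo express them. Genes of the same number in different clusters are paralogs that arose by duplication of an ancestral cluster. In blood, HOX genes act in stem and progenitor cells, with KMT2A-containing complexes maintaining and Polycomb complexes repressing them, and HOXA9 with its cofactor MEIS1 is a frequent driver of acute leukemia.

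The study asked whether adjusting the antibody to the amount of chromatin evens out ChIP-seq results, and it used DNAchrom, the DNA content measured directly in the chromatin input, as the amount. In the fixed-antibody arm, 7 reactions held 0.25 µg of anti-H3K27ac antibody and rising DNAchrom, and each library is named by the mark, its µg of DNAchrom and its titer (the figures leave out the mark; H3K27ac-0.31-T32, H3K27ac-0.62-T16, H3K27ac-1.25-T8, H3K27ac-2.5-T4, H3K27ac-5-T2, H3K27ac-10-T1a and H3K27ac-20-T0.5). In the normalized arm, 7 reactions held the same amounts of DNAchrom with the antibody adjusted to titer 1 (H3K27ac-0.31-T1, H3K27ac-0.62-T1, H3K27ac-1.25-T1, H3K27ac-2.5-T1, H3K27ac-5-T1, H3K27ac-10-T1b and H3K27ac-20-T1). All libraries came from fixed, otherwise untreated K562 cells, with 1 library per condition and an input library for each arm, so that arm and input cannot be told apart, and within the fixed-antibody arm titer and DNAchrom cannot be told apart. Libraries H3K27ac-10-T1a and H3K27ac-10-T1b share amount and titer, and their gap is the only view of the spread between like reactions. They differ in arm and input, so this gap also holds any offset between the arms.

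The lists held 64083 to 82143 peaks at a −log10 q of at least 2 (a q-value of at most 1%), with the fewest in H3K27ac-0.31-T32. Fold enrichment is the authors' ratio of ChIP over input at a peak. The lists hold no reads, so depth per library is unknown from them and no counting intervals were possible. The paper reports read pairs, mapping and complexity for each library, which did not enter the fits. In its values H3K27ac-0.31-T1 had the lowest share of uniquely mapped pairs and the lowest complexity. As a check of the cell type, 8 of 9 erythroid marker genes carried a TSS peak in all 14 lists, as K562 is of erythroid character, while of the lymphoid marker genes reported here CD79A did so in all 14 lists, CD2 in 1 and CD3E and MS4A1 in 0.

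H3K27ac peaks sat at HOXB and HOXC genes and not at HOXA and HOXD genes. In all 14 lists 9 of the 39 genes had a peak within 2 kb of the TSS, namely HOXB2, HOXB4, HOXB6, HOXB7, HOXB9, HOXC4, HOXC5, HOXC6 and HOXC9. This is 23.1% of the HOX genes, and of all protein-coding genes 49.2% had a peak in all 14 lists. No list had a peak at 24 HOX genes (61.5%), against 37.5% of all protein-coding genes with a peak in none. These were all 11 HOXA genes, all 9 HOXD genes, HOXB3, HOXB13, HOXC11 and HOXC12. The remaining 6 genes had a peak in some lists, HOXC10 in 9, HOXB1 in 5, HOXC8 in 3, and HOXB5, HOXB8 and HOXC13 in 1 each. A list held a peak at 10 to 12 of the 39 genes, and H3K27ac-0.31-T32, with the fewest peaks, held 10 as did 9 others. On the full deposited lists, which reach a q-value of 5.00%, the same 9 genes were found in all 14 lists and 24 genes in none. HOXC4, HOXC5 and HOXC6 share 1 RefSeq TSS, so that their values at the TSS are 1 measurement and not 3.

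**Figure D1:**
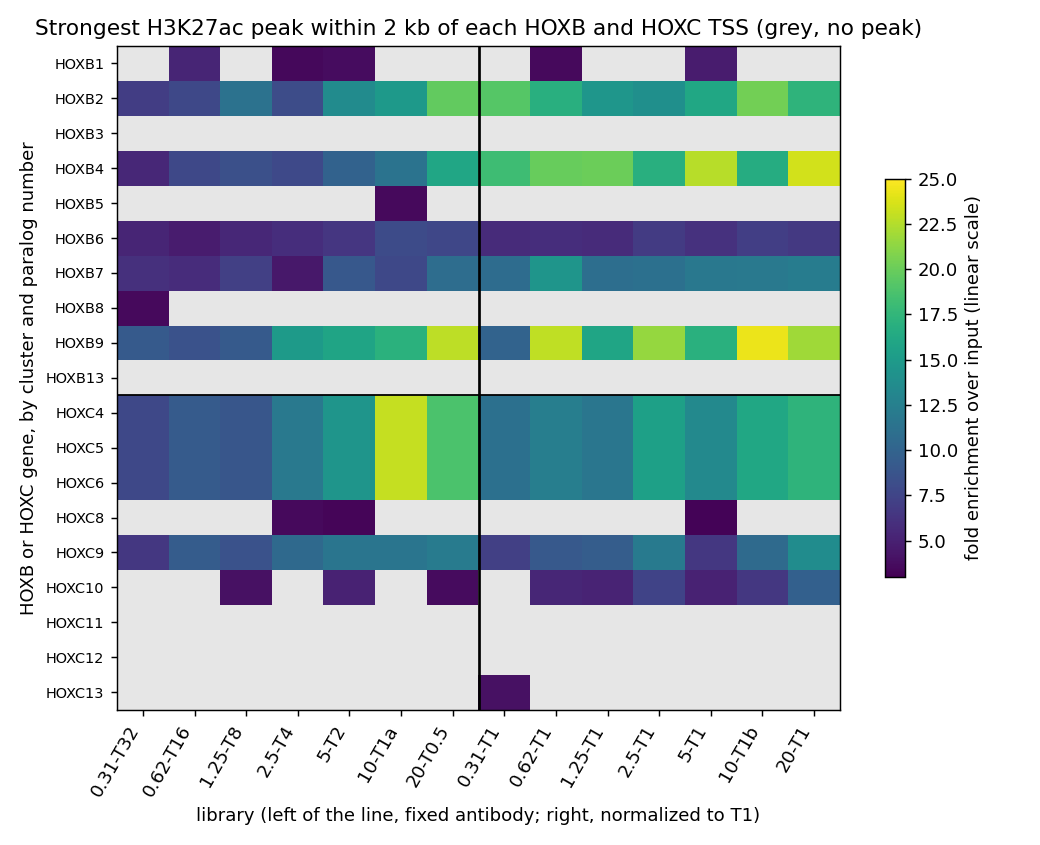
Fold enrichment over input of the strongest H3K27ac peak within 2 kb of the TSS of each of the 10 HOXB and 9 HOXC genes (rows) in the 14 libraries (columns, fixed-antibody arm left of the line), with grey where there was no peak. HOXB3, HOXB13, HOXC11 and HOXC12 are grey throughout, and HOXB2, HOXB4, HOXB9 and HOXC4 to HOXC6 hold the highest values.

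Promoter sequences were read at a start with a peak within 2 kb and at starts of paralogs without one. The RefSeq promoter table (GRCh38.p14, 250 bases before to 50 bases after a start) held 27 starts of 20 HOX genes, of which HOXB1, HOXC4 and HOXC5 were the only HOXB or HOXC genes. The shared start of HOXC4 and HOXC5 (chr12:54016638-54016937, plus strand) is the outermost RefSeq start of both and of HOXC6, not a start of HOXC4 alone. No list had a peak in HOXC4 beyond chr12:54030503, and the gene ends at chr12:54056030. Set beside it are HOXA4 (chr7:27130708-27131007, minus strand) and HOXD4 (chr2:176151300-176151599, plus strand), paralogs by number of HOXC4 and not of HOXC5. HOXB1 (chr17:48530962-48531261, minus strand) is added. Each sequence below runs from 5′ to 3′ with CpG dinucleotides in capitals.
HOXC4 and HOXC5: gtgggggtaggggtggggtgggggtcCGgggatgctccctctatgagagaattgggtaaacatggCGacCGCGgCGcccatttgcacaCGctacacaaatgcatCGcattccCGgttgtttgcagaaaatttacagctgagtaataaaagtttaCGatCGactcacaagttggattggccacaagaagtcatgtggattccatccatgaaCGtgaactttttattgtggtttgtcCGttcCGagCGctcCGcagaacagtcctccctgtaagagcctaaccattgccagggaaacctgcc
HOXA4: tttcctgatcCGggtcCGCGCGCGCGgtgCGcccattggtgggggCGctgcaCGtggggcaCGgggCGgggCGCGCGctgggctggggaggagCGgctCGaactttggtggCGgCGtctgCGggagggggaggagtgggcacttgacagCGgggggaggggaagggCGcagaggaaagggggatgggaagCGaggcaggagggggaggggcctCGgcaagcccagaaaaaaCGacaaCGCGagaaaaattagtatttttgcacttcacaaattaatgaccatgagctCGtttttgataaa
HOXD4: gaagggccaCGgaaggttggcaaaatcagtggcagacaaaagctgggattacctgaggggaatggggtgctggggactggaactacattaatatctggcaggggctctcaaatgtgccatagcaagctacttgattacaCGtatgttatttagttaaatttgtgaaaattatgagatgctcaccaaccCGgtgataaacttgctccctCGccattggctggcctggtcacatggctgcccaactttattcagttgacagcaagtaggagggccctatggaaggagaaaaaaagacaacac
HOXB1: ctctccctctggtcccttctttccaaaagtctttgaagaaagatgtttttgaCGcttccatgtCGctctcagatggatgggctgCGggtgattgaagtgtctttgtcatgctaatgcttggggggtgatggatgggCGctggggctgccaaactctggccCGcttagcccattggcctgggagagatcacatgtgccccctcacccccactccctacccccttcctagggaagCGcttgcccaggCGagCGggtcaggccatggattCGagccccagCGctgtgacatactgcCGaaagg

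The HOXC4 window held 15 CpG dinucleotides (motif CG, the same on both strands), the HOXA4 window 27, the HOXD4 window 4 and the HOXB1 window 11. Over the 22156 windows of protein-coding genes the median was 21 and 98.1% held at least 1. The 16 HOXA starts had 0 to 44 CpG with a median of 21.5. The 8 HOXD starts had 4 to 36 with a median of 24.5, and none of the HOXA and HOXD windows had a peak. Only the windows of HOXC4 with HOXC5 and of HOXB1 lay near peaks, too few to compare marked with unmarked starts. The motif AGATAA, searched on both strands as the core of the site that erythroid GATA factors bind, was in 2 of the 27 windows, both of HOXA3, and in 7.88% of all protein-coding windows. A peak overlapped the printed HOXC4 window itself in 3 of 14 lists and the HOXB1 window in 2, since the HOXC4 peak lay mostly downstream of the start.

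The HOXA cluster (chr7:27092993-27200091, minus strand) held 0 peaks in all 14 lists over its 107.1 kb. None overlapped HOTAIRM1, HOXA-AS2, HOXA-AS3, HOXA10-AS or HOXA11-AS, the long non-coding RNA genes among the HOXA genes. SKAP2, an adaptor protein gene next to the cluster, had a TSS peak in all 14 lists. EVX1, the homeobox gene next to HOXA13, had none.

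The HOXD cluster (chr2:176087487-176190907, plus strand) held 1 peak in 5 lists and none in 9. It lay at chr2:176097334-176097669, between HOXD13 and HOXD12 and more than 2 kb from any member's TSS, with a fold enrichment of 3.41 to 5.81. The 5 lists were H3K27ac-10-T1a, H3K27ac-20-T0.5, H3K27ac-5-T1, H3K27ac-10-T1b and H3K27ac-20-T1, and no list from less than 5 µg of DNAchrom held it. On both sides the HOXD cluster was flanked by peaks, with MTX2, a mitochondrial outer membrane protein gene, and LNPK, which encodes the endoplasmic reticulum protein lunapark, marked in all 14 lists, whereas EVX2 next to HOXD13 was marked in none.

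Most of the acetylated HOX chromatin lay in HOXB (chr17:48528526-48728750, minus strand). Peaks covered 12.2% to 20.4% of its 200.2 kb in the fixed-antibody arm (median 18.0%), against 17.7% to 21.0% with normalized antibody (median 19.7%). In the fixed-antibody arm H3K27ac-0.31-T32 had 12.2%, H3K27ac-0.62-T16 14.9%, H3K27ac-1.25-T8 14.8%, H3K27ac-2.5-T4 18.0%, H3K27ac-5-T2 20.4%, H3K27ac-10-T1a 20.2% and H3K27ac-20-T0.5 19.98%. The 3 libraries with the least DNAchrom and the highest titers were thus the lowest of all 14, and the other 4 lay within the range of the normalized arm. Whole lists did the same. These 3 had 32.8, 39.4 and 41.3 Mb under peaks genome-wide, against 50.9 to 75.3 Mb in all other lists. The like reactions H3K27ac-10-T1a and H3K27ac-10-T1b had 20.2% and 21.0%. The fixed-antibody lists broke HOXB into more pieces, with 31 to 45 peaks against 24 to 31 in the normalized arm. Genome-wide the median peak width per list was 347 to 451 bp with fixed and 440 to 477 bp with normalized antibody.

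HOXC (chr12:53938831-54056030, plus strand) was covered to a smaller share than HOXB in every list. Peaks covered 5.75% to 9.36% of its 117.2 kb in the fixed-antibody arm (median 7.95%), against 6.62% to 10.5% with normalized antibody (median 9.05%). The lowest was H3K27ac-0.62-T16 at 5.75%, next came H3K27ac-1.25-T8 at 6.41% and H3K27ac-0.31-T1 at 6.62%, and the arms overlapped. There were 10 to 14 peaks per list with fixed and 9 to 13 with normalized antibody. These shares are descriptions and were not tested.

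**Figure D2:**
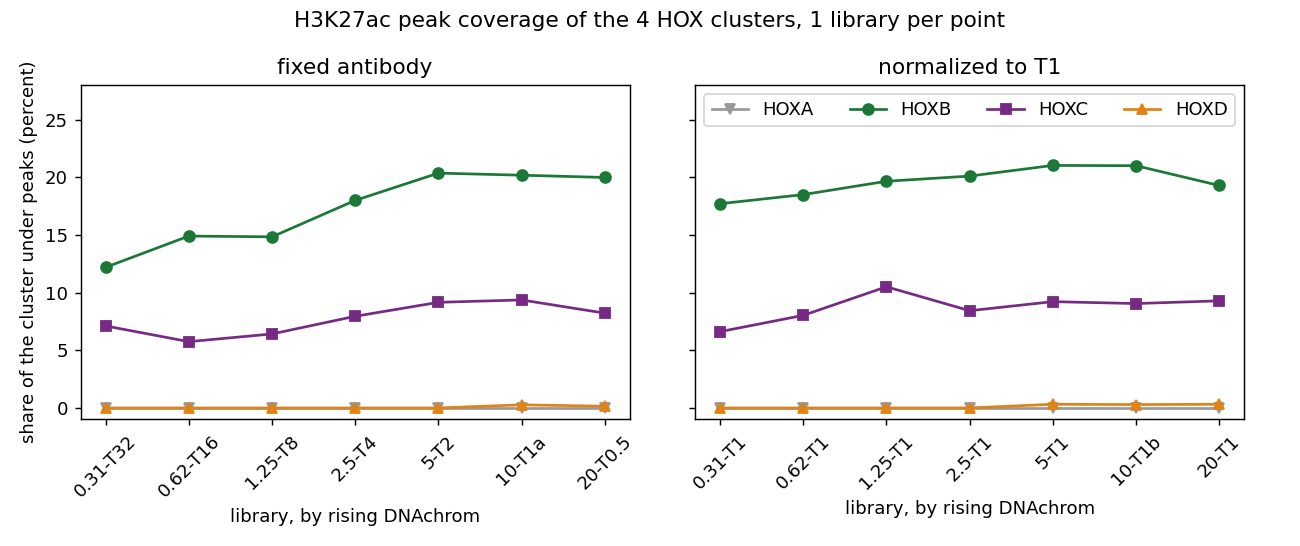
Share of each HOX cluster under peaks (y axis, percent) in the 7 libraries of each arm in order of DNAchrom (x axis), 1 library per point. HOXB rises from 12.2% in H3K27ac-0.31-T32 to 20.4% in H3K27ac-5-T2 and stays between 17.7% and 21.0% in the normalized arm, while HOXA is at 0 and HOXD is at most 0.322%.

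The 14 lists merged into 53 regions in HOXB, 7 of which were found in all 14 lists, and into 27 regions in HOXC, 3 of which were. The widest was chr17:48621813-48636524, 14.7 kb over the HOXB9 TSS, HOXB-AS4 and MIR196A1, with a highest fold enrichment per list of 8.53 to 24.4. Next came chr17:48540648-48552736, 12.1 kb over HOXB2 and the 3′ part of HOXB3, and chr17:48575036-48583370, 8.34 kb over HOXB4, MIR10A and part of the long non-coding RNA gene HOXBLINC. In HOXC the regions in all 14 lists were chr12:53994016-53998575 over HOXC-AS2, chr12:53998767-54001738 over the HOXC9 TSS and chr12:54016736-54020915 over the shared TSS of HOXC4, HOXC5 and HOXC6. The longest stretch of HOXB without a peak in any list ran 80.7 kb from chr17:48648056 to chr17:48728750, which takes in HOXB13, the outlying member of the cluster. In HOXC it was 34.3 kb, chr12:53950416-53984741, with HOXC11, HOXC12 and HOTAIR, a long non-coding RNA known for recruiting Polycomb complexes.

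**Figure D3:**
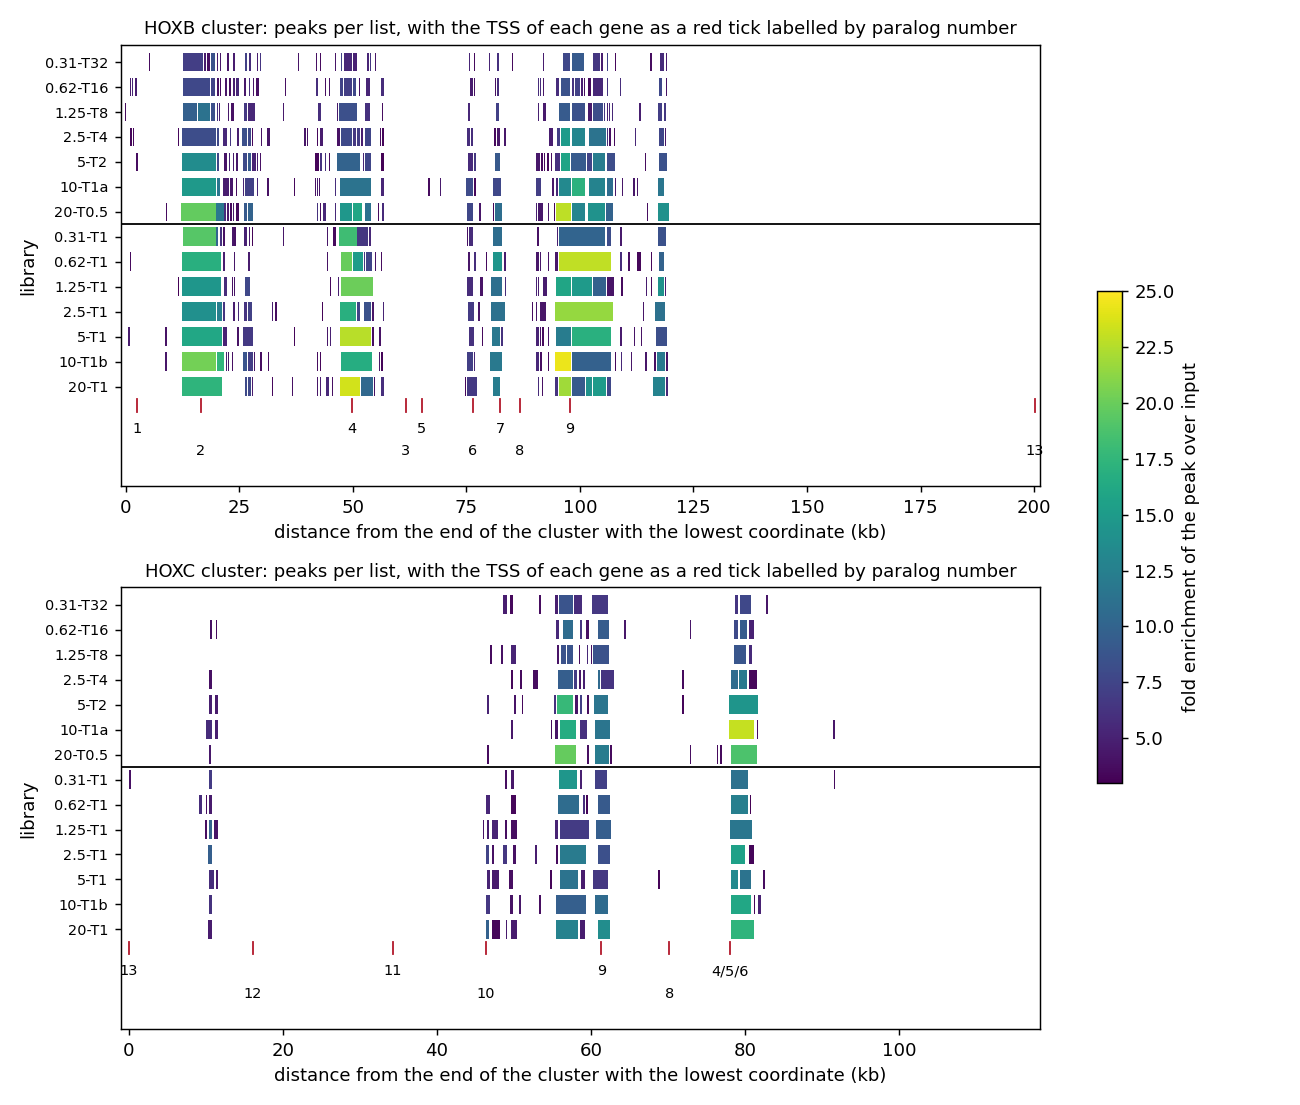
Peaks of each list (rows) along the HOXB and HOXC clusters as distance in kb from the end with the lowest coordinate (x axis), coloured by fold enrichment over input, with the TSS of each gene as a red tick. The 53 HOXB regions end 80.7 kb before the TSS of HOXB13, and the wide peaks at HOXB2, HOXB4 and HOXB9 are darker and more broken in the upper fixed-antibody lists.

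HOXB3 shows how the TSS rule and the gene body differ. Its outermost RefSeq TSS had no peak within 2 kb in any list, yet peaks covered 18.2% to 34.2% of its 41.4 kb body in all 14 lists, among them regions found in all 14 lists at HOXB4, which it spans, over HOXB-AS2 (chr17:48554221-48557265) and at its own 3′ end, into which the wide HOXB2 region reaches. HOXB2, whose 2.46 kb body lies inside a wide peak, was covered by 93.0% to 100% and HOXB4 by 74.3% to 100%. HOXB9 was covered by 30.3% to 69.6% of its body. HOXB5 and HOXB13 had no peak in the body in any list, and HOXB8 had one in 3 lists.

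Peak width at the TSS also differed among members. The HOXB2 peak was 2558 to 8720 bp wide (median 7366 bp) and covered the TSS in 14 of 14 lists. At HOXB9 the median width was 2500 bp with fixed and 8768 bp with normalized antibody, with 12727 bp in H3K27ac-2.5-T1, and at HOXB4 it was 2497 and 4339 bp. HOXB6 had narrow peaks with a median of 1034 bp and a covered TSS in 5 lists. The summit of the HOXC4, HOXC5 and HOXC6 peak lay 710 to 1602 bp inside the gene (median 1450 bp), and its TSS was covered in 2 lists. At HOXC9 the TSS was covered in 12 lists.

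MicroRNA genes of the clusters were read by the peaks over their hairpins. Mature sequences from RefSeq (GRCh38.p14) are given 5′ to 3′ with the seed, bases 2 to 8, in capitals, to show that an acetylated and an unmarked locus can encode the same seed.
miR-10a-5p: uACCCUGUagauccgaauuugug
miR-196a-5p: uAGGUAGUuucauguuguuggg
miR-196b-5p: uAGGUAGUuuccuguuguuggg

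The hairpin of MIR10A (chr17:48579838-48579947), upstream of HOXB4, lay under a peak in 12 lists, all but H3K27ac-0.31-T32 and H3K27ac-1.25-T8. MIR196A1 in HOXB (chr17:48632490-48632559) lay under a peak in 14 lists and MIR196A2 in HOXC (chr12:53991738-53991847) in 2, H3K27ac-2.5-T4 and H3K27ac-2.5-T1, though both encode miR-196a-5p. MIR196B in HOXA, which shares the miR-196a-5p seed, and MIR10B in HOXD lay under none. A peak over a hairpin does not measure the microRNA.

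In the fixed-antibody arm, the peaks at all 9 HOX genes with a peak in every library fell as the titer rose. The steepest slope was that of HOXC4, HOXC5 and HOXC6, at −0.26 ± 0.04 (SE) log2 fold enrichment per doubling of titer over 7 libraries, and the shallowest that of HOXB6, at −0.12 ± 0.04. The limma fit over 9815 genes called 8297 as falling, which is 84.5%, so 9 of 9 is close to what all genes did. The median slope of all genes was −0.16 per doubling. With each list's median removed, 1.87% of genes were called in either direction and 0 HOX genes (3 with an unadjusted p under 0.05, HOXC4, HOXC5 and HOXC6, which are 1 measurement), and HOXB6, HOXB7 and HOXC9 turned to positive slopes of 0.04, 0.03 and 0.04.

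HOXB4, a regulator of hematopoietic stem cell self-renewal, rose in fold enrichment from 5.41 in H3K27ac-0.31-T32 over 7.76, 8.39, 7.87, 9.92 and 11.4 to 16.04 in H3K27ac-20-T0.5. The slope was −0.22 ± 0.04 per doubling of titer (adjusted p = 0.000334, limma). From the highest to the lowest titer the gain was 2.96-fold, against a median of 1.91-fold over all genes present in the 14 lists. This gain depends on the window. In H3K27ac-0.31-T32 a stronger peak of 7.44 lay in the HOXB4 region just outside the 2 kb. The highest value of that region in H3K27ac-20-T0.5 was the same 16.04. The paper describes the amounts of DNAchrom as aliquots diluted from chromatin of fixed K562 cells. The libraries thus compare reaction conditions and not cells that differ in acetylation.

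HOXB2, which patterns the hindbrain, had 6.96, 7.75, 11.3, 8.14, 13.6, 14.9 and 19.7 from H3K27ac-0.31-T32 to H3K27ac-20-T0.5. It had a slope of −0.24 ± 0.04 (adjusted p = 0.000304, limma). This slope too depends on the window, as a stronger peak of 8.57 lay just outside the 2 kb in H3K27ac-0.31-T32, in the HOXB2 region. The summit of the HOXB2 peak lay −1838 to 2986 bp from the TSS. With the summit required inside the window HOXB2 entered no fit, neither this one nor those below. HOXB9, which acts in thoracic patterning and mammary development, had 9.23, 8.53, 9.26, 15.0, 15.8, 17.0 and 22.8 and a slope of −0.24 ± 0.04 (adjusted p = 0.000235, limma). For both genes the 3 libraries of the highest titers were the 3 lowest or among the 4 lowest.

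The shared TSS of HOXC4, HOXC5 and HOXC6, genes expressed in the cervical and thoracic region of the embryo, had 7.73, 9.31, 8.85, 11.9, 14.4, 23.1 and 18.8. The peak of H3K27ac-10-T1a was the highest of all 14 libraries there, and H3K27ac-10-T1b, of the same amount and titer, had 16.1. The slope was significant (adjusted p = 0.000207, limma).

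The remaining 3 genes had shallower slopes. HOXB7, which is overexpressed in several cancers, ranged from 4.40 in H3K27ac-2.5-T4 to 10.9 in H3K27ac-20-T0.5 (−0.13 ± 0.05, adjusted p = 0.0233), but its adjusted p was 0.223 without H3K27ac-20-T0.5, 0.128 in the exact permutation test and 0.0675 with absent peaks set to the lowest value of the list. HOXC9 ranged from 6.57 in H3K27ac-0.31-T32 to 12.2 in H3K27ac-20-T0.5 (−0.13 ± 0.04, adjusted p = 0.00590), and without H3K27ac-0.31-T32 its adjusted p was 0.0842. HOXB6 ranged from 4.65 in H3K27ac-0.62-T16 to 8.02 in H3K27ac-10-T1a, with an adjusted p of 0.00818 in limma. It was the weakest of the 7 distinct peaks, with a median of 6.04 over all libraries.

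In the normalized arm the fit found no gene with a trend over DNAchrom. Of 10274 genes tested 0 were called by limma, 0%, and 0 by the exact permutation test, with 1270 and 1207 genes at an unadjusted p under 0.05. The median slope of all genes was 0.04 log2 per doubling of DNAchrom. The highest HOX slope was 0.13 ± 0.05 at HOXB9 (adjusted p = 0.359, limma), followed by 0.10 ± 0.04 at HOXC4, HOXC5 and HOXC6 (adjusted p = 0.313) and 0.10 ± 0.05 at HOXC9 (adjusted p = 0.446). Only 4 HOX genes, HOXB9 and HOXC4, HOXC5 and HOXC6, had an unadjusted p under 0.05 in limma. HOXB2 and HOXB7 had slopes of 0.01 ± 0.04 and 0.00 ± 0.04, which, like that of HOXB4, turned negative with the list median removed.

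Across the normalized libraries HOXB4 ranged from 16.6 to 23.5 with a mean of 19.7 ± 2.68 (SD, n = 7), a coefficient of variation of 13.6% against 35.8% in the fixed-antibody arm. For HOXB2 the coefficients were 13.5% and 39.3%, for HOXB7 10.7% and 29.7%, for HOXC4 to HOXC6 17.2% and 42.5%, and for HOXB6 9.17% and 20.2%. HOXB9 had 26.4% and 37.8%, with 10.0 in H3K27ac-0.31-T1 as its lowest normalized value. HOXC9 alone of the 7 peaks varied more in the normalized arm, 26.0% against 19.9%, with 6.57 in H3K27ac-5-T1 next to 13.7 in H3K27ac-20-T1. In H3K27ac-2.5-T1 its value, here and in the fits, was the 12.1 of the neighbouring HOXC-AS2 region, which reached into the window. The region over the HOXC9 TSS held 8.39 in that list. The medians over all genes present in the 14 lists were 15.99% and 29.1%.

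**Figure D4:**
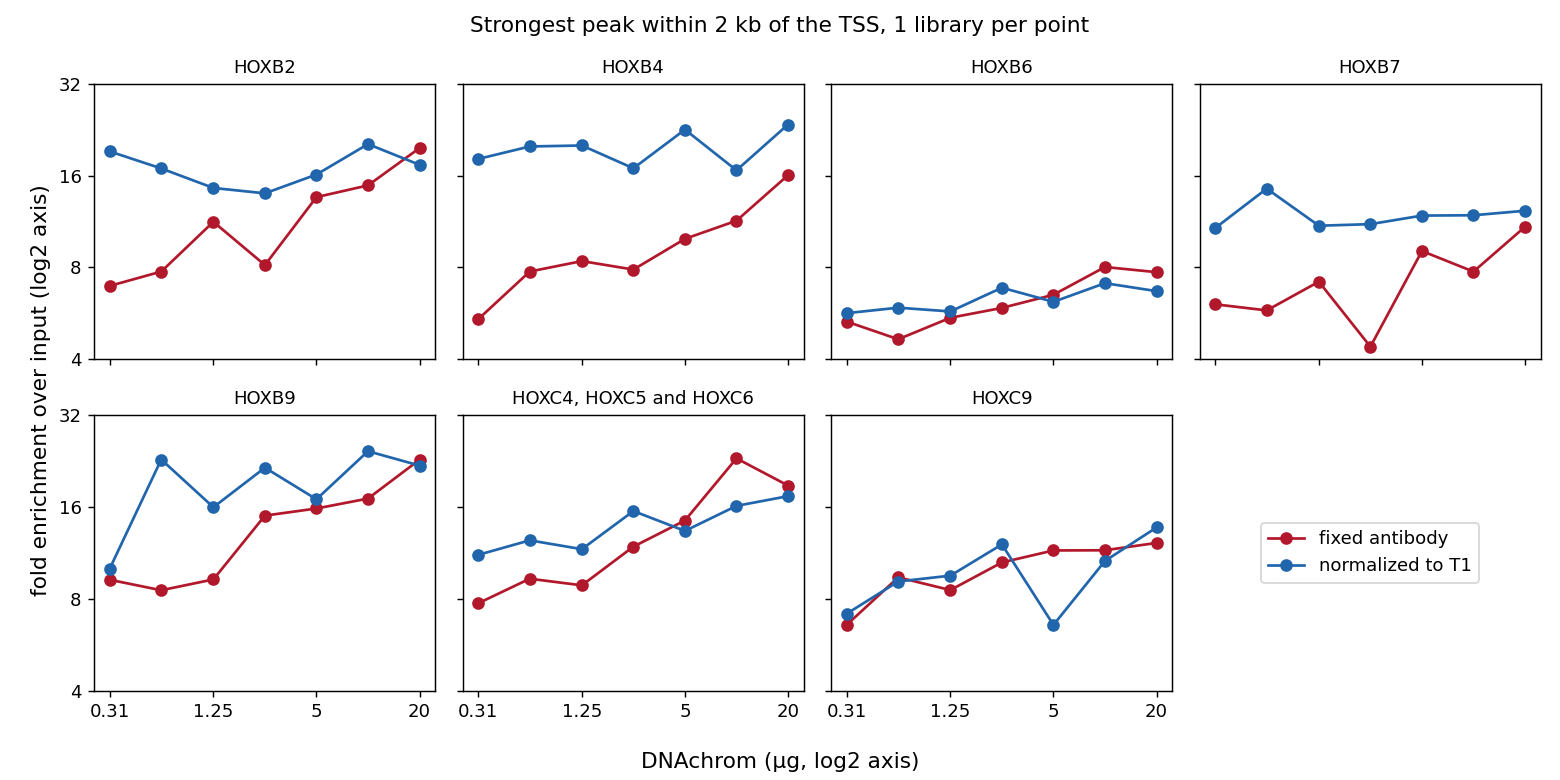
Fold enrichment of the strongest peak within 2 kb of the TSS (y axis, log2) against DNAchrom in µg (x axis, log2) for the 7 distinct HOX peaks found in all 14 lists, 1 library per point. Fixed-antibody values have a rising trend with DNAchrom at each peak before the list median is removed, and the HOXB4 values of the arms, 5.41 to 16.04 and 16.6 to 23.5, do not overlap.

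At matched DNAchrom, 4 of the 9 HOX genes, all in HOXB, were higher in the normalized arm. The fit over 6 amounts, which leaves out 10 µg where both arms are at titer 1, called 4248 of 9655 genes as higher, which is 44%, and the median difference of all genes was 0.36 log2. Called were HOXB4 at 1.20 ± 0.18 (SE) log2 (adjusted p = 2.71e-08, limma), HOXB7 at 0.78 ± 0.18 (adjusted p = 0.000228), HOXB2 at 0.63 ± 0.18 (adjusted p = 0.00271) and HOXB9 at 0.48 ± 0.18 (adjusted p = 0.0220). Not called were HOXC4, HOXC5 and HOXC6 at 0.25 ± 0.18, HOXB6 at 0.07 ± 0.18 and HOXC9 at −0.04 ± 0.18. These SEs, like those of the other limma fits, are moderated toward a spread shared by all genes and are therefore nearly equal. The SD of each gene's own differences over the 6 amounts ran from 0.20 at HOXB6 to 0.61 at HOXB2. The HOXB9 call was lost without the pair of H3K27ac-0.62-T16 and H3K27ac-0.62-T1 (adjusted p = 0.243), of H3K27ac-1.25-T8 and H3K27ac-1.25-T1 (0.0919) or of H3K27ac-2.5-T4 and H3K27ac-2.5-T1 (0.0530), with no replicate block (0.0542), and with absent peaks set to the lowest value of the list (0.0662).

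HOXB4 stood 2.30-fold higher in the normalized arm, in 6 of 6 amounts. In order of rising DNAchrom the differences were 1.74, 1.36, 1.26, 1.10 and 1.19 log2 from 0.31 to 5 µg, and 0.55 at 20 µg. The difference at 0.31 µg rests on the 5.41 of H3K27ac-0.31-T32, where the window left out a nearby peak of 7.44. Its 7 normalized values (lowest 16.6, median 19.9, highest 23.5) lay above its 7 fixed-antibody values (lowest 5.41, median 8.39, highest 16.04), which 5.14% of the genes present in all lists also showed and no other HOX gene did. HOXB7 was higher in 6 of 6 amounts and HOXB2 and HOXB9 in 5 of 6, the exception being 20 µg, where the fixed-antibody titer is 0.5. At HOXB2 the difference of 1.46 at 0.31 µg likewise rests on a window that left out a nearby peak of 8.57 in H3K27ac-0.31-T32. A shared sign in all 6 amounts was common. The exact permutation test gave 3046 of 9655 genes an unadjusted p under 0.05, which takes the same sign throughout, in either direction.

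The like reactions differed at the same genes. H3K27ac-10-T1b exceeded H3K27ac-10-T1a by 0.61 log2 at HOXB7, 0.55 at HOXB4, 0.52 at HOXB9 and 0.45 at HOXB2, and was lower by 0.52 (−0.52) at HOXC4, HOXC5 and HOXC6, where the median of all genes was −0.05. For HOXB4, HOXB7 and HOXB2 the mean over the 6 other amounts was larger than this gap, and for HOXB9 it was not. As these libraries lie in different arms with different inputs, the gap is not a measure of spread alone.

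With each list's median removed, HOXB4 at 0.82 ± 0.12 (adjusted p = 0.000241) and HOXB7 at 0.40 ± 0.14 (adjusted p = 0.0490) remained higher, as did 11% of all genes (1058, all of them among the 4248), and HOXC9 at −0.41 ± 0.15 (adjusted p = 0.0457) was lower, as were 12.9%. HOXB2 (0.26) and HOXB9 (0.10) no longer passed, and HOXB6 (−0.30) and HOXC4, HOXC5 and HOXC6 (−0.13) turned negative without passing.

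**Figure D5:**
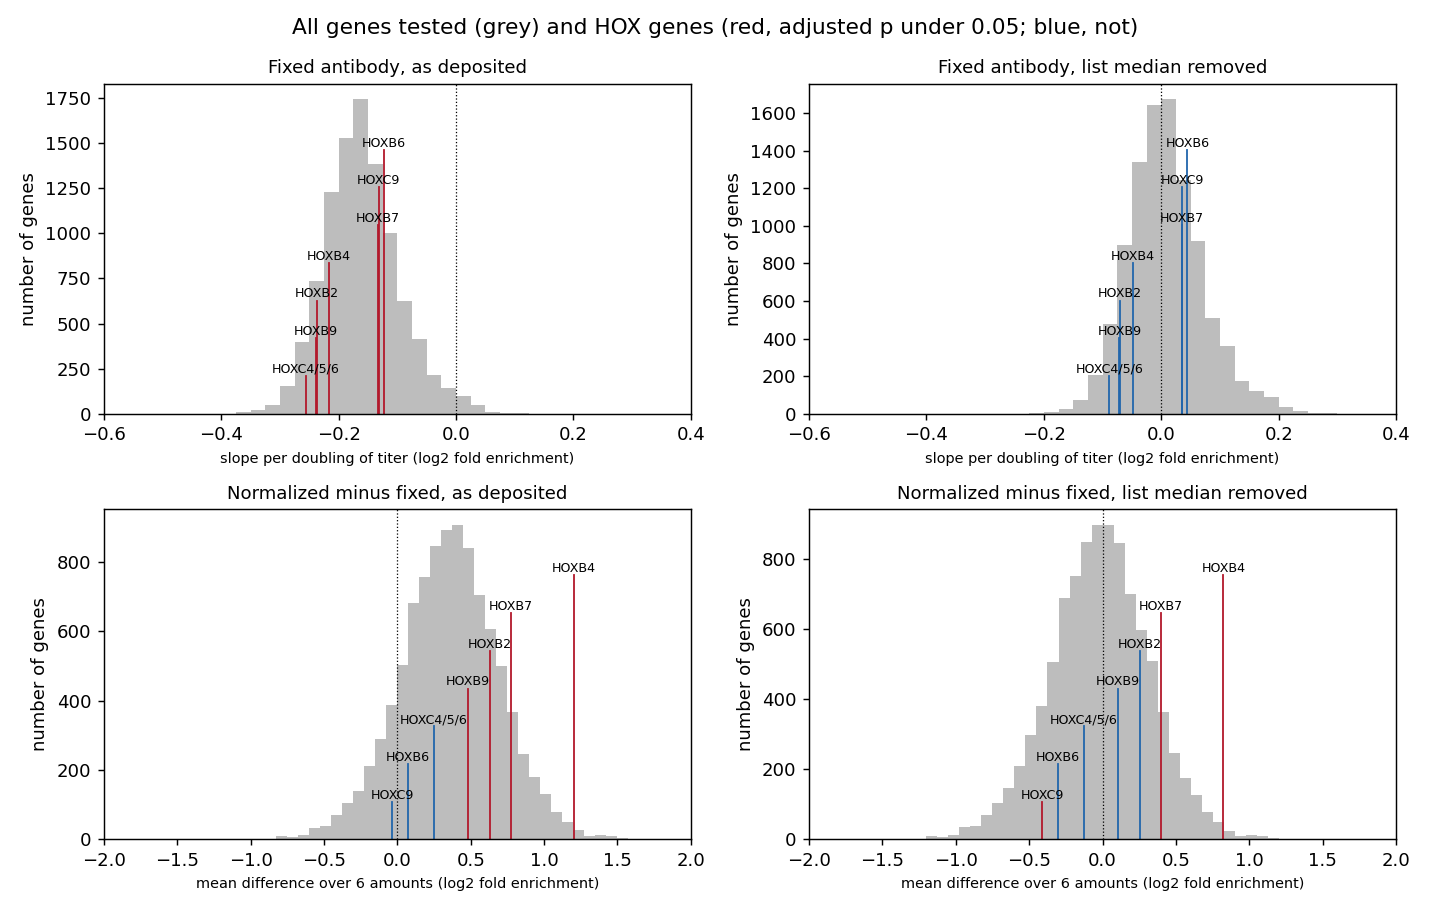
Number of genes (y axis) by slope per doubling of titer in the fixed-antibody arm (upper panels) and by mean difference between the arms (lower panels), in log2 fold enrichment, as deposited (left) and with each list's median removed (right). HOX genes are red where the adjusted p is under 0.05 and blue otherwise, and HOXB4 at 1.20 and 0.82 lies far to the right in both lower panels.

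The trends over DNAchrom themselves differed between the arms at 5 HOX genes. In a limma interaction fit over the 14 libraries, added after the data had been seen, 34.8% of genes had a steeper rise in the fixed-antibody arm. Of the HOX genes these were HOXB2, HOXB4 and HOXC4, HOXC5 and HOXC6. With a 5 kb window HOXB4 was lost (adjusted p = 0.0600) and HOXB6 and HOXC9 were gained (0.0170 and 0.0164), and with absent peaks imputed HOXC4, HOXC5 and HOXC6 were lost (0.0604). With the list median removed 0 of 9655 genes were called, 0 of them HOX genes, with 1103 genes at an unadjusted p under 0.05.

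HOXC10, expressed in hindlimb and lumbar regions, had a peak within 2 kb of its TSS in 6 normalized and 3 fixed-antibody libraries. Its fold enrichment was 5.14 to 9.75 in the former and 3.67 to 5.12 in the latter. No such peak was in H3K27ac-0.31-T32, H3K27ac-0.62-T16, H3K27ac-2.5-T4, H3K27ac-10-T1a and H3K27ac-0.31-T1. The HOXC10 body, however, held a peak in 13 lists. A region of it beyond the window, chr12:53988151-53989226, was found in 12 lists. It had 3.48 in H3K27ac-0.31-T32, 3.38 in H3K27ac-2.5-T4, 4.42 in H3K27ac-10-T1a and 4.46 in H3K27ac-0.31-T1, and was absent in H3K27ac-0.62-T16. HOXB1, the most 3′ HOXB gene, had weak peaks of 3.46 to 5.27 in 3 fixed-antibody and 2 normalized lists. HOXC8 had 3.23 to 3.55 in 3 lists. Being absent from some lists, these genes did not enter the fits above. With each absent peak set to the lowest fold enrichment of its list, the fit at matched DNAchrom called HOXC10 higher in the normalized arm. Its difference was 0.82 ± 0.23 log2 (adjusted p = 0.0136, limma), and 3956 of 12273 genes were called higher in that fit. As HOXC10 had a peak within 2 kb of its TSS in only 3 fixed-antibody libraries, this difference rests partly on the set values. Its true size was not measured. HOXB1 and HOXC8 were called in no comparison with absent peaks set in this way.

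Genes known to work with or upon HOX genes were read in the same way. Of the cofactor genes reported here, which encode TALE homeodomain partners of HOX proteins, MEIS1, MEIS2, PBX2 and PKNOX1 had a TSS peak in all 14 lists, PBX4 in 13 and PKNOX2 in 12, and MEIS3 and PBX3 in none. The MEIS1 peak was modest, with a median fold enrichment of 6.88, against 17.0 at PBX2 and 17.3 at PKNOX1. The share of all protein-coding genes with a peak in all 14 lists was 49.2%. Of 13 genes of upstream activators 9 were marked in all 14 lists, among them KMT2A and MEN1, while CDX1 was marked in 1 and CDX2, CDX4 and MLLT3 in none. Of 18 Polycomb genes 17 were marked in all 14 lists and PHC2 in 2.

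These gene lists were also followed in the same fits. In the fixed-antibody arm 5 of 5 tested cofactors, 9 of 9 activators and 12 of 17 Polycomb genes fell with titer, against 84.5% of all genes, with list medians of −0.22, −0.18 and −0.14. No member of these lists was called in the normalized arm. At matched DNAchrom 2 of 4 cofactors, 6 of 9 activators and 6 of 17 Polycomb genes were higher in the normalized arm, against 44% of all genes. EZH1, a Polycomb methyltransferase gene, had the largest difference among them at 1.47 ± 0.18.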

How the data were processed

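H3K27ac ChIP-seq of K562 cells was represented by 14 narrowPeak lists. The authors called peaks in each library with MACS2 in Partek Flow; the submitters' processing notes name BWA 0.5.9 and CASAVA 1.4 and the build hg38, which the positions bear out although the paper's methods name hg19. The deposited columns hold the fold enrichment (a ratio of ChIP over input), the −log10 of the p-value and q-value, a score and the summit offset. The deposited score and −log10 p-value were not analysed, and the 2 inputs entered only through the authors' calling.

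Only peaks reaching a −log10 q of 2 entered. Each gene's value was the fold enrichment of the strongest peak within 2 kb of the outermost RefSeq start, for 19630 of 19974 protein-coding genes whose strand was found in the promoter table or, by symbol, in GENCODE. Genes with a peak in all libraries of a fit entered limma 3.58.1 (R 4.3.3) on log2(fold enrichment), with no pseudocount and Benjamini-Hochberg adjustment over all genes tested, at 0.05. The matched difference was paired by amount of DNAchrom, with the amount as a replicate block; across genes, the deviations of same-amount libraries from their arm means had correlations of −0.05 to 0.00 (−0.0484 to −8.79e-05) over 7 amounts, so the pairing rests on the labels' amounts alone. Only the slope fit of the fixed-antibody arm was tested on simulated data, with independent noise and a slope in a small part of the genes. Lists in which most genes shift together, as here, were not simulated. There is 1 library per condition and nothing marks separate cultures, so p-values measure spread around a trend, or between amounts, that may be technical. HOX genes with a peak in at least 7 lists were named with values and all others with their number of lists. Members and gene lists were chosen with earlier results of these data known. Alternatives were other q-values, windows and scalings, an exact permutation test, absent peaks imputed, no replicate block and leaving out libraries. Python 3.11.15, numpy 2.4.6, pandas 2.3.3 and matplotlib 3.10.9 were used. A few genes are not reported here by name.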

Additional observations from a re-analysis of the deposited data

Results flagged for a closer look

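Among the 7 normalized libraries, HOXB7 had its highest fold enrichment in H3K27ac-0.62-T1, at 14.5, which lay farther from the other 6 than Dixon's 95% limit allows. This was 1 of 30 groups of values examined, where chance flags about 1 in 20 groups. Between the arms, the trend over DNAchrom differed in the limma interaction fit at HOXB2, by 0.23 log2 per doubling (fixed-antibody minus normalized slope, adjusted p = 0.0110), at HOXB4, by 0.19 (adjusted p = 0.0199), and at HOXC4, HOXC5 and HOXC6, by 0.15 (adjusted p = 0.0406). None of the 3 differences passed with the list median removed.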

How the results depend on the processing

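The HOX genes with a peak in all lists numbered 7 to 10 and those with none 21 to 29 over the alternative q-values, windows, summit rule and extra starts, and 9 and 24 to 25 with any 1 library left out. The covered share (median over 14 lists) fell to 16.7% for HOXB and 6.70% for HOXC at a −log10 q of at least 5, and HOXD had 0.246% with 10 kb added on each side. Leaving out a library gave 19.3% to 19.7% for HOXB, 8.22% to 8.43% for HOXC and 0 for HOXA and HOXD.

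In the fixed-antibody arm the genes that fell went from 8297 to 17 with the list median removed and to 0 by percentile within the list, and the HOX genes that fell from 9 to 0 in both. HOXB6, HOXB7 and HOXC9 reversed with the median removed (0.0447, 0.0350 and 0.0354 per doubling of titer) and HOXC9 by percentile (0.12 percentile points). The exact permutation test called 6704 genes and 8 HOX genes as falling, without HOXB7. Without 1 library, 6842 to 8323 genes and 8 to 9 HOX genes fell. In the normalized arm 0 genes became 6 with a 5 kb window and 0 to 2 without 1 library, with 0 HOX genes throughout. The slopes there that changed sign, none of them called, were HOXC9 with a 5 kb window (−0.00024), HOXB2, HOXB4 and HOXB7 with the median removed (−0.0297, −0.0103 and −0.0347) or by percentile (−0.13, −0.0521 and −0.36 points), and, without 1 library, HOXB2 (−0.0172 to 0.0522, negative without H3K27ac-1.25-T1 or H3K27ac-10-T1b), HOXB4 (−0.00895 to 0.0563, negative without H3K27ac-20-T1) and HOXB7 (−0.0221 to 0.0333, negative without H3K27ac-0.31-T1, H3K27ac-1.25-T1 or H3K27ac-20-T1).

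For the matched difference, the median-removed fit called 1058 higher and 1243 lower genes and 2 HOX genes higher, the percentile fit 236, 257 and 0, and the exact permutation test, whose smallest p is 0.0312, 0, 0 and 0. Imputing absent peaks gave 3956 higher and 214 lower genes, with HOXB9 lost and HOXC10 gained. The HOXC10 call rests partly on imputed values, as some lists held no peak within 2 kb of its TSS. Without the replicate block (an unpaired fit) 3377 genes were higher, 82 lower and 3 HOX genes higher. Without 1 amount 3014 to 5184 were higher, 84 to 144 lower and 3 to 4 HOX genes higher. Reversed were HOXC9 without the 5 µg pair (−0.0819 to 0.12 over the pairs left out), HOXC4 with HOXC5 and HOXC6 (−0.13 with the median removed, −2.07 points), HOXB6 (−0.30 with the median removed) and HOXB9 (−0.31 points). With a 5 kb window HOXB6 passed at 0.86. The interaction reversed with the median removed at HOXC9 (−0.10), HOXB6 (−0.0555), HOXB7 (−0.00087) and HOXB9 (−0.0209), and by percentile at HOXC9 (−1.78 points), HOXC4 with HOXC5 and HOXC6 (−0.17) and HOXB9 (−0.78). The cause was not tested. The lists hold only called peaks, so acetylation under the caller's limit at HOXA and HOXD genes was not measured.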
